A study of Mus musculus with 141 samples.

Results

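The nuclear genes for subunits of mitochondrial complex I were examined across subcutaneous white adipose tissue of inbred mouse strains. Members were all genes whose symbol consists of Nduf, one of the letters a, b, c, s or v, and a number, a rule that leaves out the Ndufaf assembly factors and uses no measured value. It took in 40 of the 36558 genes in the tables. Of these, 37 are annotated as protein-coding and 3 as processed pseudogenes (Ndufb4c, Ndufa11b and Ndufs6b), and they lie on 15 chromosomes. Ndufv2, an iron-sulfur subunit of the NADH-oxidizing arm, was described in most detail (ENSMUSG00000024099, GRCm38 chr17:66078638-66101559, minus strand).

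Inguinal (subcutaneous) adipose tissue came from female and male mice of the Hybrid Mouse Diversity Panel (HMDP). All mice were given HF/HS food, rich in fat and sucrose, for 8 weeks after 8 weeks on chow and were fasted before tissue was taken, so no chow-fed group was compared. The tables hold poly(A)-selected RNA-seq libraries of 67 females and 74 males from 82 strains, with 1 library per strain and sex and 59 strains with both. BXD recombinant inbred strains (from C57BL/6J and DBA/2J) gave 32 female and 34 male libraries. AXB/BXA strains (from A/J and C57BL/6J) gave 9 and 11, and BXH strains (from C57BL/6J and C3H/HeJ) 2 and 3. CXB strains (from BALB/c and C57BL/6 mice) gave 3 and 3, and classical inbred strains 21 and 23. Where founders are named below, BALB/cJ and C57BL/6J stand for the CXB parents, whose sublines may differ. AXB19/PgnJ, AXB19a/PgnJ and AXB19b/PgnJ are by their names sublines of 1 line. They are counted as 3 strains in the totals and in the tests reported, although they may not be independent. Since a strain has a single library in each sex, p-values measure the spread between these libraries, and animal-to-animal variation within a strain cannot be told apart from strain differences in a single library.

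Complex I is the entry point of the respiratory chain: it oxidizes NADH, passes the electrons to ubiquinone and pumps protons across the inner mitochondrial membrane. Its matrix arm holds an N module, which binds NADH, and a Q module, which reduces ubiquinone; the proton-pumping membrane arm has a proximal and a distal part. The catalytic core is shared between nuclear genes and the mitochondrial mt-Nd genes, and the remaining accessory subunits are all nuclear. In white adipose tissue, oxidative genes are known to be higher where brown-like (beige) adipocytes are present.

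Libraries held 6269154 to 78562648 estimated counts (median 30233245), of which 3.99 to 29.9% came from mitochondrially encoded genes. Adipocyte markers (Adipoq, Plin1, Plin4, Cidec, Fabp4) summed to at least 5445 TPM in every library (TPM, transcripts scaled for length to a fixed total per library), and none of the 5 had a median of 0. In 3 libraries (BXD34/TyJ female, BXD69/RwwJ female, NZW/LacJ male) Y-linked genes went against the sex label; of the 59 strains later paired by sex only NZW/LacJ was among them, and values resting on these libraries are also given without them where they were recomputed. The library labelled BXD34/TyJ female was also the shallowest, with the highest mitochondrially encoded share. In bulk tissue, fewer cells of a type and less RNA per cell cannot be told apart.

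Complex I subunits were abundant, and most lay within a narrow band of levels. On the TPM scale, which corrects for transcript length, the members together made up 1442 to 9161 TPM in female libraries (median 6763) and 5303 to 9315 TPM in male libraries (median 6909). The upper parts of these ranges overlapped, and the female range reached lower. The female minimum was BXD34/TyJ, and the next lowest female library, BXD27/TyJ, had 4125 TPM. BXD34/TyJ gave the lowest female TPM for 37 of the 40 members, although its mean member level on the trimmed-mean-scaled log2 CPM (counts scaled to a fixed library total) scale, 5.79, was near the female median of 5.75.

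The 5 highest members by median TPM over all libraries were Ndufa4 (846 TPM), Ndufb4c (291 TPM), Ndufs5 (281 TPM), Ndufb9 (277 TPM) and Ndufb8 (250 TPM). Ndufa4 was first purified with complex I but is now counted as a cytochrome c oxidase subunit. Ndufb8 and Ndufb9 are accessory subunits of the distal membrane arm, and Ndufs5 is an accessory subunit of the proximal membrane arm. At the other end were the pseudogenes Ndufa11b and Ndufs6b, both with a median of 0 TPM, then Ndufa4l2 (15.6 TPM), Ndufa13 (61.8 TPM) and Ndufb4 (64.4 TPM). Ndufa4l2 is a hypoxia-inducible relative of Ndufa4, Ndufa13 (also known as GRIM-19) a membrane-arm subunit, and Ndufb4 a distal-arm subunit. Ndufa11b never exceeded 5 counts and Ndufs6b never exceeded 9, and neither passed the filter on low counts, which left 38 members for testing.

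By median TPM, the nuclear core subunits described here lay inside the range of the accessory ones. Apart from Ndufv2, they were in its lower part. Ndufv2 had 38.2 TPM in its lowest, 203 in its median and 284 in its highest female library, and 127.2, 200 and 293 TPM in males. The upper parts of both ranges overlapped, with BXD34/TyJ lowest and BXD14/TyJ highest in females and BXA24/PgnJ lowest and NZB/BlNJ highest in males. Without BXD34/TyJ, the lowest female library was BXD27/TyJ, at 127.3 TPM. In the founders of the recombinant inbred families, Ndufv2 reached 201 TPM in the female and 192 in the male C57BL/6J library, 230 and 228 in DBA/2J, 221 and 186 in A/J, 183 and 185 in C3H/HeJ, and 182 and 196 in BALB/cJ. All of these founder values lay well inside the range of each sex.

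Ndufv1, which carries the flavin that accepts electrons from NADH, had 18.6, 107.6 and 168 TPM in its lowest, median and highest female library and 80.02, 108.2 and 160 TPM in males. Ndufs1, the largest iron-sulfur subunit of the N module, had 34.3, 97.2 and 137.4 TPM in females and 77.9, 102.7 and 132.01 TPM in males. For both genes the female range reached lower and enclosed the male range. In the Q module, Ndufs7 and Ndufs8, which hold the last iron-sulfur clusters before ubiquinone, had female medians of 71.1 and 87.02 TPM and male medians of 68.7 and 88.9 TPM. BXD34/TyJ was the lowest female library for each of these genes. Ndufs3, a core Q-module subunit, had medians of 81.01 TPM in females and 85.2 TPM in males. Its row was identical in all libraries to that of a second gene, ENSMUSG00000111727, which has no symbol in the tables used; each had a median of 83.8 TPM, and their sum 168 TPM.

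**Figure D1:**
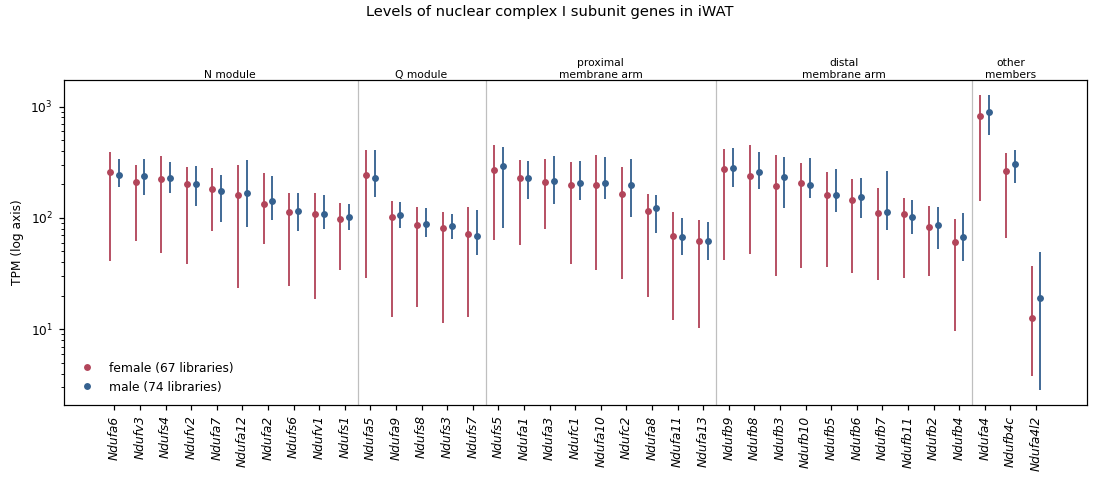
TPM (vertical axis, log scale) of 37 members, ordered by module. Points are medians and lines run from the lowest to the highest library, in separate colours for the 67 female and 74 male libraries; most medians sit between about 60 and 300 TPM, with Ndufa4 above and Ndufa4l2 below them.

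Some members share sequence with processed pseudogenes, intronless copies of an mRNA inserted elsewhere in the genome and 3 members are described with theirs. Windows of 31 bases are the units by which the study's quantification assigned reads, so a shared window gives reads that fit both genes. In the GRCm38 transcripts, 15 of the 40 members shared over 10% of their windows with another gene. For some this is an overlapping neighbour (28.3% of Ndufa13's windows with Tssk6, 34.5% of Ndufb6's with Smim27), and for others a copy. Ndufs5 shared 26.5% of its windows (234 of 884) with BC002163, Ndufa12 20.2% with Gm15920, and all 360 windows of Ndufb4c occur in Ndufb4. The sequences below, from GRCm38, show how little separates each pair; capitals mark bases that differ. The first pair covers coding bases 61 to 130 of Ndufs5 (chr4:123715950-123716019, minus strand) and the matching stretch of BC002163 (chr16:42955691-42955760, plus strand).
Ndufs5: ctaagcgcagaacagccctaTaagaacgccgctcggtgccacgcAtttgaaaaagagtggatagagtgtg
BC002163: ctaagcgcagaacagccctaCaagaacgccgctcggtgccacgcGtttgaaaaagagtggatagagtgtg

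Counted from the first coding base, T81C and A105G (base of Ndufs5 first) were the only differences over the 319 aligned bases of the copy. Ndufa12 and Gm15920 differed at A135G and T414C over 402 bases. The windows around both are shown for Ndufa12 at chr10:94199964-94200023 and chr10:94220804-94220853, plus strand, and for Gm15920 at chr5:130188459-130188518 and chr5:130188739-130188788, plus strand.
Ndufa12: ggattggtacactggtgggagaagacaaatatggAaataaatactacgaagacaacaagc
Gm15920: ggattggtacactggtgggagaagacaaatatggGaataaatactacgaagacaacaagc
Ndufa12: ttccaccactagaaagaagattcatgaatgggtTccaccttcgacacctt
Gm15920: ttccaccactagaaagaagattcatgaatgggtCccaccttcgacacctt

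Ndufb4 and Ndufb4c did not differ at any of 390 bases, of which the first 60 are printed once each (Ndufb4 at chr16:37654300-37654359 and Ndufb4c at chr15:73809837-73809896, both minus strand).
Ndufb4: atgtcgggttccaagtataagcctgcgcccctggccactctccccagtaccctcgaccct
Ndufb4c: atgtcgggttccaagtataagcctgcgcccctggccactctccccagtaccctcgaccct

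Ndufb4c had a median of 291 TPM against 64.4 TPM for Ndufb4, and exceeded 50 TPM in every library. With no differing base, reads from the coding part of Ndufb4 cannot be told apart from reads of the pseudogene; the sum of both had a median of 357 TPM.

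BC002163, by contrast, was high in some strains and near 0 TPM in the rest. It lay above 50 TPM in 20 libraries of 11 strains, at 164 to 371 TPM, and at or below 3.001 TPM in all others, with 0 counts in 84 libraries. All 11 were classical strains: 129X1/SvJ, BTBR T<+> tf/J, C57BLKS/J, FVB/NJ, I/LnJ, LP/J, NOD/ShiLtJ, NZB/BlNJ, NZW/LacJ, SM/J and SWR/J. In those libraries Ndufs5 had 80.4 to 207 TPM, compared with 62.8 to 448 TPM elsewhere. None of the 58 recombinant inbred strains and none of their founders was among them. For example, Ndufs5 had 93.7 TPM and BC002163 209 TPM in the BTBR T<+> tf/J female, while the C57BL/6J female had 289 TPM of Ndufs5 and none of BC002163.

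Gm15920 split the strains in another way. It was above 50 TPM in 56 libraries of 34 strains (113.05 to 249.2 TPM), and the next highest values were 43.9 TPM in the BXD27/TyJ female and 42.5 TPM in the BXD34/TyJ female. All remaining libraries had Gm15920 at or below 3.86 TPM. Ndufa12 had 82.6 to 173 TPM where Gm15920 was above 50 TPM and 23.4 to 333 TPM elsewhere. The lowest values elsewhere were those same females, BXD34/TyJ (23.4 TPM) and BXD27/TyJ (74.5 TPM), followed by the AXB12/PgnJ female (109.4 TPM). In the founders, Gm15920 was at 0.39 and 0.41 TPM in the C57BL/6J female and male and between 162 and 225 TPM in DBA/2J, A/J, C3H/HeJ and BALB/cJ. Among their descendants it was above 50 TPM in 8 of 40 BXD, 2 of 11 AXB/BXA, 3 of 4 BXH and 2 of 3 CXB strains. BXD27/TyJ and BXD34/TyJ, just below this limit, are not among the 8. Gm15920 was above 50 TPM in 19 of 24 classical strains. NZW/LacJ was the lone strain whose 2 libraries disagreed, with 0.37 TPM in the female and 129 TPM in the male, 1 of the 3 libraries with Y-linked genes against its label.

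Adding the counts of a copy to its member, an alternative chosen after seeing the data, brought all 3 members closer to the rest. On the log2 CPM scale, the SD over libraries fell from 0.59 to 0.42 for Ndufs5 and from 0.53 to 0.47 for Ndufa12. The level of Ndufs5 relative to the mean of the other members ran from -1.26 to 0.61 (log2) alone and from -0.31 to 0.53 with BC002163 added. The reads themselves were not used, so which gene each shared read came from was not tested.

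**Figure D2:**
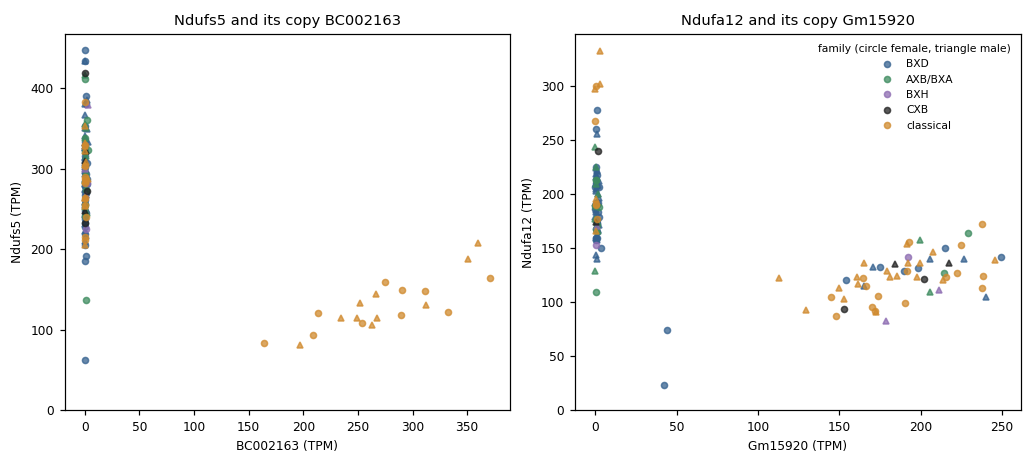
TPM of a copy (horizontal axis) against TPM of its member (vertical axis), for Ndufs5 with BC002163 and Ndufa12 with Gm15920, with 1 point per library, colour for the strain family, circles for females and triangles for males. Libraries with BC002163 at 164 to 371 TPM have Ndufs5 at 80.4 to 207 TPM, and those with Gm15920 at 113.05 to 249.2 TPM have Ndufa12 at 82.6 to 173 TPM.

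The members rose and fell together across libraries. After the mean of each sex was removed, the median Pearson's r over the 703 pairs of the 38 tested members was 0.83 (range -0.18 to 0.97) over all libraries, on the log2 CPM scale. Of these pairs, 93.2% had r above 0.5, against 6.57% of random pairs of all genes tested, whose median r was -0.01. These points share their library and its composition, so the values are descriptive. The median was 0.86 in females and 0.81 in males, 0.87 in BXD, 0.84 in AXB/BXA and 0.83 in classical libraries, and 0.85 without BXD34/TyJ.

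Pairs within a module were about as close as pairs from different modules. Median r was 0.80 within the N module, 0.89 within the Q module, 0.81 within the proximal and 0.85 within the distal membrane arm, and 0.84 between modules. Ndufv2 had r = 0.94 with the mean of the other members. Ndufb9 and Ndufs3 had the highest such values, 0.98 each, with the reservation for Ndufs3 that its row is shared.

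The 5 members that followed the others least were Ndufa4l2 (r = 0.14), Ndufs5 (0.64), Ndufa12 (0.67), Ndufs1 (0.78) and Ndufc2 (0.80). Ndufa4l2 had r = 0.28 in females and -0.08 in males. With the copies added, Ndufs5 reached 0.93 and Ndufa12 0.90, and Ndufb4 went from 0.89 to 0.93. Ndufs1 and Ndufc2, a proximal membrane-arm subunit, were close to the rest in females (0.86 and 0.90) and less so in males (0.64 and 0.67); the difference between the sexes was not tested.

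**Figure D3:**
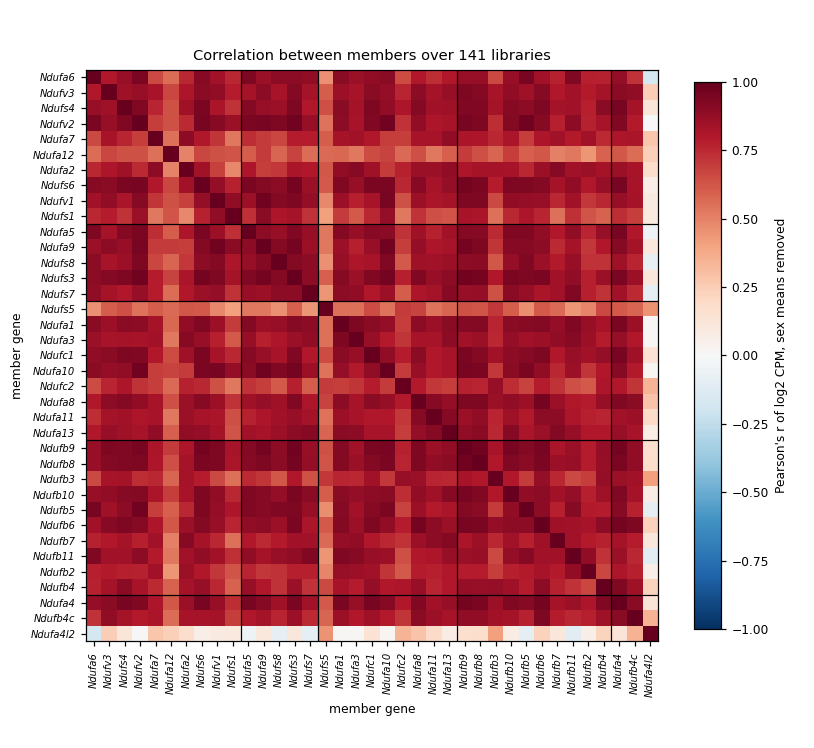
Pearson's r between members over all libraries (log2 CPM, sex means removed), with 37 members ordered by module on both axes and colour for r. The field is high throughout (median 0.83), apart from the rows of Ndufa4l2, Ndufs5 and Ndufa12.

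Outside the members, the genes closest to their mean encoded subunits of the other respiratory complexes. The 10 highest were Cox6b1 (r = 0.98), Cox4i1 (0.98), the gene with the Ndufs3 row (0.98), Cox6a1 (0.98), Cox5b (0.97), Sdhc (0.96), Uqcr10 (0.96), Uqcrq (0.96), Ndufab1 (0.96) and Cox6c (0.96). Ndufab1, the mitochondrial acyl carrier protein, is itself a complex I subunit that the symbol rule leaves out. The Cox genes belong to complex IV, Uqcr10 and Uqcrq to complex III and Sdhc to complex II.

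Over 67 female and 74 male libraries, the member mean had r = 0.99 and 0.98 with the mean of 10 complex IV genes, 0.98 in both sexes with 15 complex V genes, 0.97 and 0.96 with 9 complex III genes, and 0.96 and 0.92 with both the 4 complex II genes and the 17 assembly factors. The 7 mitochondrially encoded complex I genes were less close, at 0.72 (0.83 without BXD34/TyJ) and 0.66. For 11 regulators of mitochondrial genes the values were 0.76 in females and 0.34 in males. Among single regulators over all libraries, r was 0.66 for Ppargc1a, a coactivator of mitochondrial biogenesis, 0.55 for Esrra and Ppara, -0.38 for Nrf1 and -0.53 for Yy1.

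Some cell type markers moved with the member mean as well. With 6 brown and beige adipocyte markers (Ucp1, Cidea, Elovl3, Cox7a1, Cox8b, Dio2) the member mean had r = 0.73 in females and 0.56 in males. Cox7a1 and Cox8b are themselves complex IV genes, so this list is not independent of the respiratory genes. Values with 5 adipocyte markers were 0.50 and 0.59. With 8 lymphocyte markers r was -0.48 and -0.38, and with 7 macrophage markers -0.39 and -0.19. The other lists had r of 0.22 and -0.07 (endothelial), 0.03 and 0.10 (progenitor), -0.06 and 0.10 (skeletal muscle) and -0.06 and 0.01 (mammary epithelial). The extremes of the member mean (log2 CPM) were 4.97 in AXB12/PgnJ and 6.96 in BXD14/TyJ among females and 5.33 in BXD85/RwwJ and 6.83 in CXB11/HiAJ among males. AXB12/PgnJ also had the lowest female adipocyte mean (8.77) and the highest female macrophage (6.62) and lymphocyte (7.38) means, whereas BXD14/TyJ had the highest female brown and beige mean (7.96). The part of these cell types in the members' levels was not tested.

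To ask how the sexes differ, female and male libraries of the 59 strains with both were compared by the quasi-likelihood test of edgeR with strain as a block, and p-values were adjusted over 16765 genes by the Benjamini-Hochberg method. With trimmed-mean scaling, 13 of 38 members were lower in females (adjusted p under 0.05) and none was higher, whereas scaling by library totals called 5 lower and 3 higher. This 34.2% is to be read against the background: 29.8% of all genes were called lower and 28.4% higher in females. The median log2FC (female minus male) was -0.11 over the members and 0.01 over all genes, and 35 of 38 members were below 0 (21 with library totals). Without the strains whose libraries went against their labels, 13 of 38 were called and the median was -0.12.

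The direction of small differences depended on scaling. With library totals in place of trimmed-mean scaling, the median of all genes moved to 0.12 and that of the members to -0.0046. Of the 8 members called then, Ndufa6, Ndufa7 and Ndufb11 were higher in females and Ndufa4l2, Ndufb3, Ndufv3, Ndufb4c and Ndufc2 lower. Subtracting the all-gene median left the members' median at -0.13 with trimmed-mean scaling, -0.12 with totals and -0.10 for TPM on a log2 scale. The mean of the members on the trimmed-mean scale was 0.13 log2 lower in females with an SD of 0.45 over strains (-0.13 ± 0.45, n = 59), and it was lower in the female of 40 of 59 strains.

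The largest difference was in Ndufa4l2. It had 3.82 TPM in its lowest, 12.6 in its median and 36.6 in its highest female library, against 2.85, 19.2 and 49.2 TPM in males, and the sexes overlapped widely. In matched strains it was lower in the female of 49 of 59, with a log2FC of -0.65 ± 0.10 (SE; edgeR quasi-likelihood test, adjusted p = 1.65e-07). Ndufb3, a distal-arm subunit, had 29.95, 195 and 363 TPM in females and 122.4, 233 and 352 TPM in males, with a log2FC of -0.29 ± 0.07 (edgeR, adjusted p = 0.000369, lower in 43 of 59 strains). Ndufv3, an accessory subunit of the N module, had 61.4, 208 and 301 TPM in females and 161, 239 and 335 TPM in males, with a log2FC of -0.27 ± 0.06 (edgeR, adjusted p = 0.000262, lower in 43 of 59 strains). In both genes the shift was smaller than the range over strains within either sex. The lowest female library of both was BXD34/TyJ, which is not among the 59 matched strains.

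Ndufb4c followed, with a log2FC of -0.22 (lower in 41 of 59 strains), and for the sum of Ndufb4 and Ndufb4c it was -0.21 ± 0.06 (edgeR, adjusted p = 0.00361). Ndufs1 was lower in the female of 45 of 59 strains (log2FC -0.22 ± 0.07, edgeR, adjusted p = 0.00394) and Ndufc2 in 42 (-0.22 ± 0.06, edgeR, adjusted p = 0.000672). The remaining members called were Ndufb8, Ndufb6, Ndufv1, Ndufa9, Ndufb4, Ndufs5 and Ndufs3, with log2FC between -0.20 and -0.15. Of the core subunits, Ndufs1, Ndufv1 and Ndufs3 thus passed, and Ndufv2, Ndufs7 and Ndufs8 did not.

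Over the 59 matched strains, the female libraries averaged 105.6 CPM of Ndufv2 with an SD of 41.04, and the male libraries 107.6 CPM with an SD of 26.97. Its log2FC was -0.06 ± 0.06 (edgeR, adjusted p = 0.423), lower in the female of 37 of 59 strains on the trimmed-mean scale, and 0.05 with library totals. Ndufs7 and Ndufs8 had log2FC of -0.06 ± 0.07 and -0.07 ± 0.06, and both were above 0 with library totals. By module, members called lower in females were 3 of 10 in the N module, 2 of 6 in the Q module, 2 of 9 in the proximal and 4 of 10 in the distal membrane arm.

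**Figure D4:**
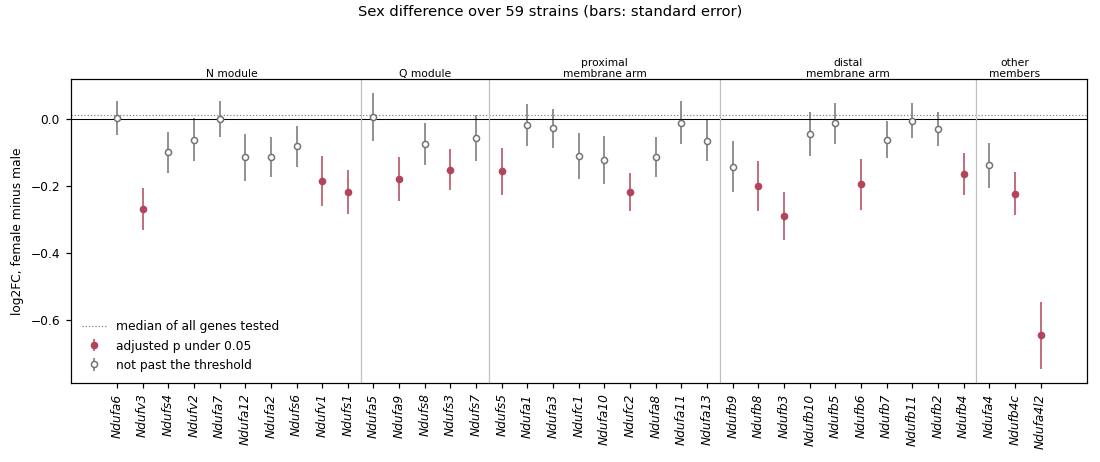
Log2FC (female minus male) of 37 members, with bars for the standard error, from the 59 strains with both sexes and trimmed-mean scaling; filled points passed the test. Most lie below 0 (35 of all 38 tested members, 21 with library totals), from -0.65 in Ndufa4l2 upwards, and Ndufv2 is at -0.06.

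The rest of the pathway showed differences of similar size. Of the 7 mt-Nd genes, 1 was called lower in females (median log2FC -0.15), and Ndufab1 had -0.16. Assembly factors, which build complex I but are not part of it, were lower in 8 of 17 and higher in 1 (Dmac2, 0.25), with a median of -0.10; Tmem126b had -0.24 and Ndufaf1 -0.20. In complex II 3 of 4 genes were lower (median -0.17), in complex III 2 of 9 (-0.09), in complex IV 1 of 10 (-0.08), and in complex V 6 of 15 were lower and 1 higher (-0.06). Regulators were lower in 5 of 11 and higher in 3 (-0.03).

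Among cell type markers, some lists were called between the sexes and others were not. All 5 adipocyte markers were lower in females (median log2FC -0.61; summed level 5445 to 61550 TPM in females and 12048 to 63720 TPM in males), as were all 5 endothelial markers (-0.37; 66.3 to 867 TPM in females, 215 to 1000 TPM in males) and 6 of 7 macrophage markers (-0.41; 85.1 to 1238 and 77.5 to 961 TPM). All 9 mammary epithelial markers were higher (6.90, with 1.70 to 4572 TPM in females and 0.38 to 554 TPM in males). In males 2 of the 9 had a median of 0. On the log2 CPM scale, the lowest female mammary mean was in BXD69/RwwJ (-2.92) and the highest male mean in NZW/LacJ (5.11). Both libraries had Y-linked genes against their label. So did those with the lowest male adipocyte and endothelial means (NZW/LacJ) and the lowest female endothelial mean (BXD34/TyJ). Ranges without these libraries are not given here. None of 6 brown and beige markers (0.03; 34.3 to 2853 and 61.9 to 2345 TPM), 8 lymphocyte markers (0.59) or 5 tested skeletal muscle markers (-0.10) was called, and of 5 progenitor markers 2 were lower and 1 higher (-0.14). The part of these cell types in the members' sex difference was not tested.

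The sex difference was then compared between BXD and all other strains by an interaction term. No member and 0 of 16765 genes (0% of all) was called (edgeR's quasi-likelihood test); unadjusted p was under 0.05 for 0 members and 314 genes, and limma-voom called 0 as well. The member mean was lower in the female in 18 of 26 BXD, 6 of 9 AXB/BXA, 12 of 20 classical and 3 of 3 CXB strains.

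Next, strains were compared. In the same fit, an F test of all strain terms asks whether the 2 libraries of a strain are closer than libraries of different strains. All 38 tested members were called (edgeR, Benjamini-Hochberg adjusted p under 0.05), against 71.2% of all genes tested. The members moved together (median pairwise r 0.83), so these calls are far from 38 independent results. For Ndufs8, Ndufs1 and Ndufa9 the permutation test of agreement between the sexes, given below, did not pass, so for them the 2 tests differ. Adjusted p ran from 1.14e-06 in Ndufs5 to 0.0357 in Ndufs1 and was 0.0076 in Ndufv2. The low value of Ndufs5 depended on its copy: with the counts of BC002163 added, adjusted p was 0.0104 in the same edgeR test. For Ndufa12 with Gm15920 added it was 0.0004. All 38 were called without the libraries against their labels too, and 28 to 38 over the alternative settings.

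Agreement between the sexes was moderate gene by gene. Pearson's r between the female and the male log2 CPM over 59 strains had a median of 0.33 over the members, against 0.30 over all genes, and 22 of 38 members were at or above that all-gene median. Without the libraries against their labels the members' median was 0.32. Above 0.5 were 2 of 38 members, Ndufs5 and Ndufa12, compared with 14.8% of all genes. For both of these the libraries fell into separate clusters by their copy, so no pooled r is given. With BC002163 added, r was 0.30 for Ndufs5 (rho = 0.24, permutation p = 0.019). The next highest were Ndufa2, an N-module subunit (r = 0.45, rho = 0.39, permutation p = 0.00039), Ndufa1, an X-linked membrane-arm subunit (r = 0.43, rho = 0.43, permutation p = 0.00064), and Ndufc2 (r = 0.42, rho = 0.36, permutation p = 0.00089). Without the 2 strains farthest from the median, r was 0.40, 0.35 and 0.46, and without NZW/LacJ 0.44, 0.43 and 0.40. The lowest were Ndufs8 (r = 0.16, permutation p = 0.228), Ndufs1 (0.18, permutation p = 0.165) and Ndufa9, a Q-module subunit (0.19, permutation p = 0.149). These p-values are two-sided and not adjusted; r was computed for 38 members.

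Ndufv2 had r = 0.27 (rho = 0.29, permutation p = 0.041), and r was 0.27 without the 2 strains farthest from the median and 0.26 without NZW/LacJ. This placed it at the 42.3rd percentile of all genes. Within families r was 0.38 over 26 BXD strains (rho = 0.31, permutation p = 0.0593 for r), 0.48 over 9 AXB/BXA strains (rho = 0.48, permutation p = 0.19) and -0.11 over 20 classical strains (rho = 0.11, permutation p = 0.656 for r). None of the 3 passed, r and rho differed in sign in the classical strains, and the families were not tested against each other.

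The common level of the members agreed less between the sexes than their differences from each other. The mean of the members had r = 0.28 (rho = 0.23) between the sexes of a strain, 0.16 without the 2 farthest strains and 0.27 without NZW/LacJ. When the mean of the other members was subtracted in each library, which gives a relative level, the median r of the members went from 0.33 to 0.52 (0.54 without NZW/LacJ). Relative levels are compositional: a change in 1 member moves the reference of the others.

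For Ndufv2, relative r was 0.45 (permutation p = 0.0004; 0.51 without NZW/LacJ), with 0.51 in BXD (permutation p = 0.00777) and 0.40 in classical strains (permutation p = 0.0823). Its relative level (log2 CPM above the mean of the others) was high in both libraries of SJL/J, 1.15 in the female and 1.17 in the male, and among the lowest in the BXD24/TyJ-Cep290<rd16>/J female, at 0.56 (0.74 in the male). C57BL/6J had 0.82 and 0.70, and DBA/2J 0.75 and 0.84.

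The highest relative agreement was in Ndufs5 and Ndufa12, again with strains in separate clusters. Within BXD, where no strain had BC002163 above 50 TPM, Ndufs5 had a relative r of 0.16 (rho = 0.20, permutation p = 0.442). With BC002163 added, relative r of Ndufs5 over 59 strains was 0.42 (rho = 0.39, permutation p = 0.00138), with 0.32 without the 2 farthest strains and 0.44 without NZW/LacJ. For Ndufa12, the BXD strains with both sexes still lay apart by the copy after its counts were added, so no pooled r is given for the sum either. Its copy-added relative level was 0.27 in the female and 0.19 in the male of BXD45/RwwJ and 0.18 and 0.23 in BXD14/TyJ. Gm15920 was above 50 TPM in both of these strains. In BXD44/RwwJ, with Gm15920 at 1.42 and 0.33 TPM, the relative level was -0.24 and -0.19. In the founder DBA/2J, with Gm15920 above 50 TPM, it was 0.16 and 0.11. In C57BL/6J, with Gm15920 at 0.39 and 0.41 TPM, it was -0.09 and -0.17. Outside the families it was also high in both libraries of MA/MyJ (0.38 and 0.60), where Gm15920 was at 0.62 and 2.75 TPM.

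Ndufa1, Ndufc2 and Ndufa2 came next. Relative r was 0.72 in Ndufa1 (rho = 0.70, 0.70 without the 2 farthest), 0.67 in Ndufc2 (rho = 0.60, 0.64 without) and 0.63 in Ndufa2 (rho = 0.65, 0.60 without), each with permutation p = 1e-05, the smallest 100000 permutations can give. Without NZW/LacJ these were 0.72, 0.66 and 0.63. Within families, over 26 BXD strains r was 0.51 in Ndufa1 (permutation p = 0.00731), 0.43 in Ndufc2 (permutation p = 0.0275; rho = 0.32, permutation p = 0.108) and 0.70 in Ndufa2 (permutation p = 1e-05), and over 20 classical strains 0.58, 0.69 and 0.61 (permutation p = 0.00727, 0.00072 and 0.00482). Named strains show the pattern. Ndufa1 was lowest relative to the others in BXD66/RwwJ (-0.76 in the female and -0.92 in the male) and high in SJL/J (-0.20 and -0.12). Ndufa2 was low in BXD75/RwwJ (-0.91 and -0.68) and SJL/J (-0.77 and -0.79). Ndufc2 was high in BXD60/RwwJ (0.64 and 0.73) and low in MA/MyJ (-0.29 and -0.08).

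**Figure D5:**
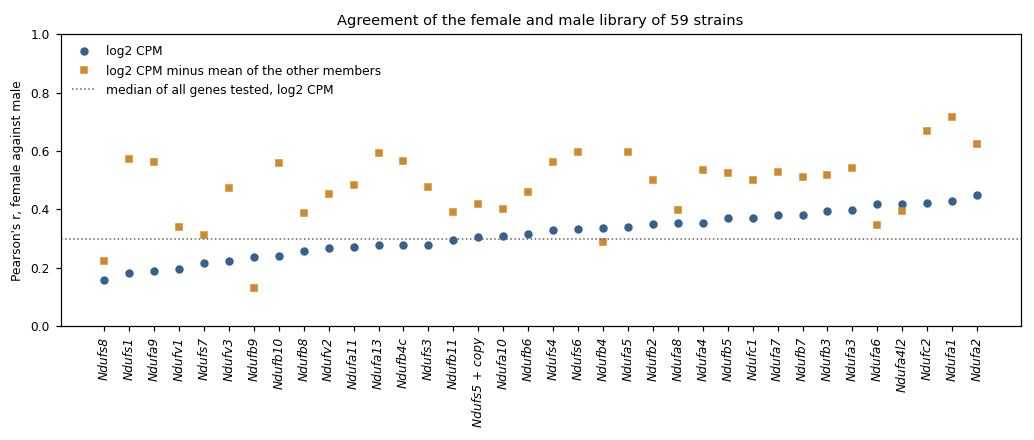
Pearson's r between the female and the male library over 59 strains for 36 members, as log2 CPM and relative to the mean of the other members, ordered by the first; Ndufs5 is drawn with its copy added and Ndufa12 is not drawn. Relative values lie above the others for most members (medians over 38 members 0.52 and 0.33), and the dotted line marks the all-gene median of 0.30.

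Families differed in few members. Among 62 female libraries of BXD, AXB/BXA and classical strains, 1 of 38 members was called for family, against 12% of all genes (edgeR, F test adjusted by Benjamini-Hochberg over 18281 genes). This was Ndufa4l2 (adjusted p = 0.0352 in edgeR), with medians of 14.2 TPM in BXD, 11.4 in AXB/BXA and 8.41 in classical females. The ranges overlapped (5.07 to 36.6, 3.96 to 19.7 and 4.83 to 24.6 TPM), and the call was lost without the BXD34/TyJ library or without the libraries against their labels. In males Ndufa4l2 had medians of 20.2, 19.3 and 17.7 TPM (edgeR, adjusted p = 0.362).

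Among 68 male libraries 2 of 38 members were called, against 7.07% of all genes. Ndufc2 had medians of 206 TPM in BXD, 196 in AXB/BXA and 161 in classical males, with overlapping ranges of 150 to 306, 132.06 to 229 and 102.3 to 248.6 TPM (edgeR, adjusted p = 0.0126; log2FC of classical minus BXD -0.33). In females its medians were 178, 159 and 150 TPM, and the difference did not pass (edgeR, adjusted p = 0.413). Ndufs5 had male medians of 309, 297 and 254 TPM (edgeR, adjusted p = 0.027), but with BC002163 added adjusted p was 0.732 in males and 0.757 in females (edgeR). No member was called in both sexes, against 3.13% of genes tested in both.

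Ndufv2 medians lay close together across families, at 198 TPM in BXD, 195 in AXB/BXA and 208 in classical females and 204, 198 and 196 TPM in males. The ranges overlapped, and neither test passed (edgeR, adjusted p = 0.668 in females and 0.793 in males). With 2 to 3 libraries per sex, BXH and CXB strains were not tested; Ndufv2 medians there were 180 and 223 TPM in females and 185 and 202 TPM in males.

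Because the members moved together, their promoters were searched for the motifs of known regulators of mitochondrial genes, in windows of 300 bases around the start (RefSeq, GRCm38.p6, both strands). Of the members, 32 were matched. The YY1 motif AANATGGCG was found in 7 of them (21.9%), compared with 2.76% of 27025 genes, counted over the whole 300-base window. Within the 250 bases upstream of the start it was found in Ndufa7 and Ndufb11 only. The remaining YY1 matches reach past the start, so they do not describe upstream sequence alone. The NRF1 motif GCGCATGCG was in 2 (6.25% against 1.95%), the ETS motif CCGGAAG in 4 (12.5% against 9.93%), and the ESRRA motif TCAAGGTCA in none (0.466% of all genes). Examples are the 250 bases upstream of Ndufb11, a distal-arm subunit (chrX:20617620-20617869, minus strand), with the YY1 motif in capitals, and of Ndufa11, a proximal-arm subunit (chr17:56717512-56717761, plus strand), with overlapping NRF1 matches of both strands in capitals. A match describes letters in the sequence; binding was not measured here.
Ndufb11: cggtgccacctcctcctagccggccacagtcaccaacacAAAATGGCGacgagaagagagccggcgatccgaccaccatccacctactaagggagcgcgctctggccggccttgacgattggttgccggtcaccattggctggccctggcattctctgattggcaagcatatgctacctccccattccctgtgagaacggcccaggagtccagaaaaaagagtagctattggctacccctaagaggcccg
Ndufa11: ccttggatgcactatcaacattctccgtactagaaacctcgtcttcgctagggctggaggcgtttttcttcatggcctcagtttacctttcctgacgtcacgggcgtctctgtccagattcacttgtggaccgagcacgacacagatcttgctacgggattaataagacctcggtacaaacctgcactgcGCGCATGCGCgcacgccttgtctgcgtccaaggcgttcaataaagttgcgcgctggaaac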

How the data were processed

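RNA was extracted from inguinal adipose tissue and poly(A)-selected libraries were sequenced by the authors. Per the labels and the study's methods, they quantified reads with kallisto 0.46.1 on GRCm38 (mm10) and summarised them per gene with tximport. The authors' deposited tables hold estimated counts (30.3% of values not whole; rounded here) and TPM. The authors made the TPM values by scaling kallisto's estimates for transcript length to a sum of 1000000 per library. Of 36558 gene IDs, 35935 were named with GENCODE M21; the other 623 have no symbol here. Every library column was matched to a sample by its title.

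The members and the gene lists were chosen with earlier results of these data known. Genes named with values followed a rule: Ndufv2, the nuclear core subunits, extremes of level (5 each way), sex difference (5), strain agreement (5 high, 3 low, 5 relative) and lowest co-expression (5), named copies, the 10 closest non-members, and members called for family. The values of 1 member are not reported here. Founders, single strains and BC002163 and Gm15920 were picked after values were seen.

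Counts were tested in edgeR 4.0.16 (R 4.3.3) with TMM scaling, filterByExpr, glmQLFit and Benjamini-Hochberg adjustment over all genes tested; a call is an adjusted p under 0.05. Sex and strain were tested in ~ Strain + Sex, family within each sex. Strain labels pair the sexes: deviations of a strain's 2 libraries correlated at a median r of 0.557, against -0.012 for different strains, over 0.1 in 45 of 59 strains and lowest in NZW/LacJ (-0.307). Correlations used log2 CPM (prior count 2; 16862 genes) and 100000 permutations. Alternatives were limma 3.58.1, DESeq2 1.42.0, other scalings, filters, units (log2(TPM + 1), log2(TPM + 0.1)) and left-out libraries. At each library's depth, a count of 0 allows up to 3 counts, or 0.0382 to 0.479 CPM, for counting error only. The scripts were tested on simulated data.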

Additional observations from a re-analysis of the deposited data

Results flagged for a closer look

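Dixon's test of the highest and lowest of the 9 AXB/BXA female libraries, the only group of a size it covers, singled out 5 of 39 values; chance alone does so in about 1 in 20. In AXB19/PgnJ, Ndufa13 had 96.2 TPM (other libraries 59.5 to 76.4 TPM) and Ndufa3, a membrane-arm subunit, 334 TPM (188 to 260 TPM). In AXB12/PgnJ, Ndufa9 had 59.8 TPM (88.2 to 108.2 TPM), Ndufb9 129 TPM (237 to 321 TPM) and Ndufs1 61.9 TPM (86.4 to 107.9 TPM). AXB12/PgnJ was the female library with the lowest adipocyte marker mean; its part in these values was not tested. A further pair of genes, outside the members, carried signal: BC002163 reached 371 TPM and Gm15920 249.2 TPM in their highest libraries, against 0 and 1.79 TPM in their median library.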

How the results depend on the processing

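Members called for sex numbered 13 in the test reported, 8 with library totals, 5 with no replicate block (without pairing by strain) and 11 to 17 in the other settings. Without the block the interaction of sex with BXD called 0 members and 61 of all genes, against 0 of each with it. Members called for family in females fell from 1 to 0 with limma on log2(TPM + 1), without the libraries against their labels, and without BXD34/TyJ. In males 2 became 1 with copy counts added. Sex log2FC changed sign for Ndufs7 (0.053 with library totals, 0.030 on log2(TPM + 1) and 0.031 on log2(TPM + 0.1)), Ndufs8 (0.036 with library totals) and Ndufv2 (0.049, 0.011 and 0.011 in the same 3 settings as Ndufs7); the cause was not tested. Over the alternatives, 28 to 38 members were called for strain, median pairwise r was 0.72 to 0.85 and median strain agreement 0.29 to 0.37. The shares of all genes called for sex and for strain in each alternative are not given here. These member counts alone therefore do not show whether members differ from other genes. Over all genes, family calls in females numbered 2189, against 775 with limma-voom, 417 on log2(TPM + 1), 1431 without the libraries against their labels and 1520 without BXD34/TyJ, and in males 1247 against 557 on log2(TPM + 1). Leaving out single libraries was tried only for those named, since each strain has 1 library per sex.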
